A study of Mus musculus with 19 samples.

Results

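Itln1 and Gm9765 are neighbouring genes on mouse chromosome 1, and their mRNA was followed through every library of a study of Smad4 in the vomeronasal organ (VNO). They are 2 of the 35596 genes measured. Both were selected on measured values of these data, namely their near absence in AP-2εCre Smad4 conditional knockouts (cKO) and their low counts in the OMPCre line. For those 2 contrasts their values are therefore given as a description, with no test. Differences between cKO and control animals inside the OMPCre line, and between the 2 kinds of control within each line, were not used for the choice and were tested, although the low level of the OMPCre line as a whole was.

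Itln1 encodes an intelectin, a secreted lectin that binds sugars found on microbial surfaces. It is best known from goblet and Paneth cells of the intestine and from mucus-producing epithelia, where intelectins rise during type 2 immune responses to worms and allergens. The number of intelectin genes is known to differ between inbred mouse strains, and the reference genome is that of C57BL/6J. Gm9765 is annotated as an unprocessed pseudogene, the class of pseudogene that arises by gene duplication and keeps introns. Smad4 is the shared partner of the receptor-activated SMAD proteins, which carry BMP and TGFβ signals to the nucleus.

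Whole VNOs of mice at postnatal day 21, all labelled female, were profiled in 18 libraries, 3 per group. In the AP-2εCre line the groups were cKO (AP-2εCre+/-/Smad4flox/flox), Cre-heterozygous controls (AP-2εCre+/-, Het) and floxed controls without Cre (Smad4flox/flox, flox), and the OMPCre line held the same 3 genotypes with OMPCre+/-. Floxed Smad4 was thus carried by cKO and flox animals of both lines, and the labels call the flox controls wild type, whereas the series design gives them as Smad4flox/flox. AP-2εCre is a knock-in at Tfap2e and acts in immature basal vomeronasal sensory neurons, and OMPCre acts in mature neurons. The labels name those neurons as the cell type, but the RNA came from the whole organ, with its blood vessels, glands and ciliated and secretory epithelium. The strain background of each animal is not given in the sources used here. In whole-organ RNA, fewer cells of a type and less RNA per cell cannot be told apart.

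The libraries held from 43385516 to 134042284 estimated counts, and the deepest was AP-2εCre cKO replicate 2. Summed levels of 6 mature neuron markers lay between 1060 and 1630 CPM (counts per 1000000 counts of the library, after TMM scaling of library sizes) over the 6 groups. Smad4 itself lay between 33.8 and 66.8 CPM in AP-2εCre cKO and between 39.8 and 80.6 CPM in the AP-2εCre controls. In OMPCre cKO it lay between 54.2 and 62.5 CPM, below the 65.1 to 83.9 CPM of the OMPCre controls. Neither difference passed the quasi-likelihood test of edgeR (p adjusted over all genes by Benjamini-Hochberg, 0.955 and 0.909). Of 18623 genes, 2.31% had OMPCre cKO and control groups that did not overlap. The floxed allele flanks an exon, whose loss the authors showed in AP-2εCre cKO by in situ hybridization. They also reported loss of Smad4 protein in both lines by immunostaining. Counts summed over the gene and the whole organ do not measure that loss. Tfap2e, the gene that carries AP-2εCre, lay at no more than 8.86 CPM in AP-2εCre Het and 12.5 CPM in AP-2εCre cKO, and reached 16.7 CPM in AP-2εCre flox. Omp lay between 225 and 286 CPM in OMPCre Het and cKO and between 305 and 476 CPM in OMPCre flox. Library names fell into 2 series, letters or the name of the line, and each group held 2 libraries of the first and 1 of the second.

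The 2 genes lie on opposite strands, 1199 bases apart. Gm9765 (ENSMUSG00000038218.3) occupies chr1:171515233-171516922 on the plus strand of GRCm38, in 3 exons that make 1 transcript of 321 bases. Itln1 (ENSMUSG00000038209.12) occupies chr1:171518122-171535294 on the minus strand. It has a long transcript of 1141 bases in 8 exons (ENSMUST00000043094.12) and a short transcript of 422 bases in 3 exons (ENSMUST00000168184.1), whose coding sequence is annotated as incomplete at both ends. Aligned in the sense direction, bases 1 to 320 of the Gm9765 transcript matched bases 450 to 769 of the long Itln1 transcript without a gap, and 297 of the 320 bases were identical (92.8%). Exon 2 of Gm9765 corresponded base for base to exon 5 of Itln1, each 159 bases long. Both exons are shown because the reads that tell the 2 genes apart rest on such differences. The 8 bases in capitals are those that differ:
Gm9765 exon 2, chr1:171515585-171515743, plus strand: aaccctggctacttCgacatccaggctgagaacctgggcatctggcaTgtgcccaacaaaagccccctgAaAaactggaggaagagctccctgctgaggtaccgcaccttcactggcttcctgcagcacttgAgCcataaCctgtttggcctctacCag
Itln1 exon 5, chr1:171531034-171531192, minus strand: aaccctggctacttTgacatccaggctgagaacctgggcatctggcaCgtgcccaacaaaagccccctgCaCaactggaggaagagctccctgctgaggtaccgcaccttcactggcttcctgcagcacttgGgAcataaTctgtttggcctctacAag

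The reads were single and 75 bases long. The longest run of identical bases between Gm9765 and the long Itln1 transcript was 60, so that none of the 247 windows of 75 bases in Gm9765 occurred in either Itln1 transcript. A read that matched Gm9765 without a mismatch therefore had at least 1 mismatch to either Itln1 transcript. The 2 Itln1 transcripts are much harder to separate, since 283 of the 348 windows of the short one (81.3%) also occurred in the long one. The short transcript skips exon 5, the exon shown above, and its own windows are the 65 that span the resulting junction. The 30 bases on each side of that junction are printed with those of the long transcript at the same donor, with the downstream exon in capitals:
Short Itln1 transcript, exon 4 joined to exon 6: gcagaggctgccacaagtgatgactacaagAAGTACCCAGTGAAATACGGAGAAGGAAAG
Long Itln1 transcript, exon 4 joined to exon 5: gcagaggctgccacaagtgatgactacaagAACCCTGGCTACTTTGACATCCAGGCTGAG

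Itln1 was abundant in the AP-2εCre controls and low in every other group. In AP-2εCre flox controls its estimated counts were 1740, 5654 and 4356, and in Het controls 4443, 2548 and 2833. The 3 AP-2εCre cKO libraries held 40, 476 and 186 counts. On the CPM scale the level was 88.5 ± 40.6 (SD, n = 3) in flox, 52.5 ± 14.6 in Het and 2.26 ± 1.45 in cKO. The lowest control, at 39.4 CPM, stood above the highest cKO, at 3.41 CPM, so the groups did not overlap. Across all 18495 genes tested in this line, 5.12% had cKO and control groups that did not overlap and 0.0378% passed an adjusted p of 0.05, and the choice of the genes used this same contrast. The fitted log2 difference of cKO minus controls was -4.94 (SE 0.62).

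Gm9765 followed the same order with a sharper edge. Its counts were 339, 1365 and 1088 in AP-2εCre flox controls and 1015, 593 and 918 in Het controls. In AP-2εCre cKO they were 1, 0 and 1. Summed over the groups, 5318 counts of 328695502 in the controls stood against 2 of 255693290 in cKO, a ratio of 2070 per unit of depth with a 95% exact interval of 572 to 17100. This interval covers counting error only, since it pools the libraries and leaves out the spread between animals. Reads were also not marked by molecule. In CPM, the AP-2εCre controls lay between 8.8 and 30.3 and no cKO library exceeded 0.0155. Per kilobase of transcript, and without TMM scaling, Gm9765 reached 52.4 ± 26.6 CPM (SD, n = 6) in these controls and the long Itln1 transcript 52.5 ± 24.9. On this scale the pseudogene was at about the level of the coding transcript. In the deposited TPM, which divide by a much shorter effective length for Gm9765, the means were 194 ± 98.4 for Gm9765 and 55.7 ± 26.4 for the long Itln1 transcript (SD, n = 6), so their relation depends on the scale.

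**Figure D1:**
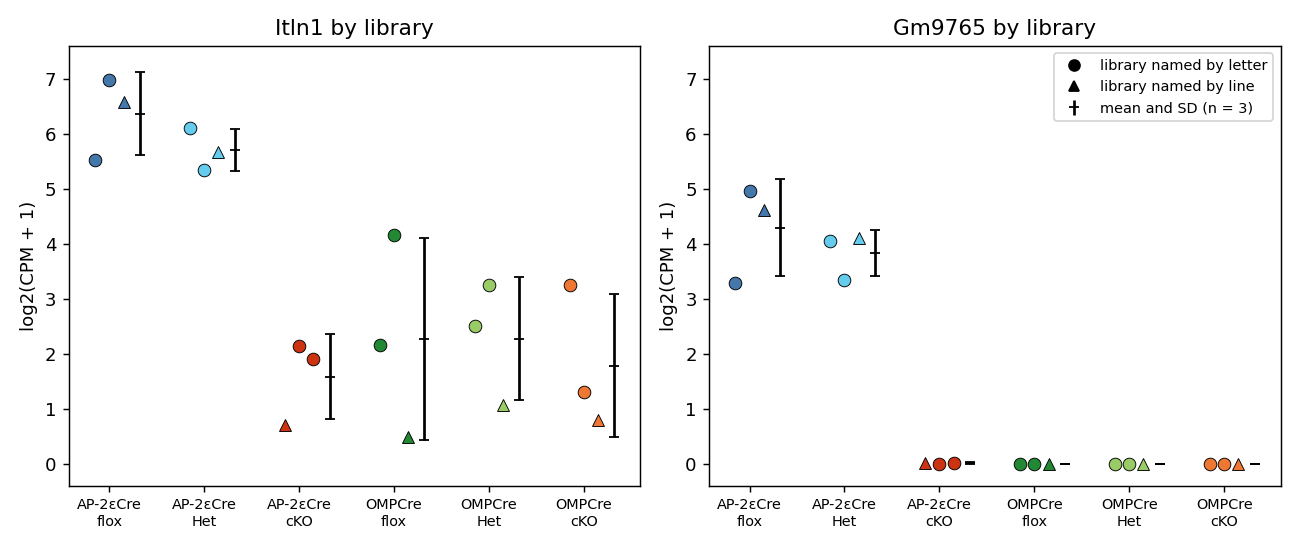
Level of Itln1 (left) and Gm9765 (right) as log2(CPM + 1) in each of the 18 libraries, by group. Circles are libraries named by letter, triangles libraries named by line, and bars give mean and SD of 3 libraries. All 6 AP-2εCre controls sit above every other library for both genes, and Gm9765 is at or near 0 in the other 12.

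In the OMPCre line Gm9765 had 0 counts in all 9 libraries, controls and cKO alike. Their total of 565801971 counts would have allowed up to 3 counts to go unseen, which puts the AP-2εCre controls at least 3050-fold higher per unit of depth. Itln1 was not absent there. Its counts were 227, 1207 and 22 in OMPCre flox, 300, 514 and 75 in OMPCre Het, and 550, 91 and 40 in OMPCre cKO. These correspond to 6.92 ± 8.77 CPM (SD, n = 3), 4.78 ± 3.73 CPM and 3.59 ± 4.34 CPM. The highest OMPCre library, flox replicate 2 at 16.9 CPM, stayed under the lowest AP-2εCre control. The 6 controls of one line did not overlap with the 6 of the other for either gene. Among the 17912 genes tested between the lines, 0.491% had such groups and 0.0949% were called, and the low OMPCre counts were part of the choice. The fitted difference of AP-2εCre minus OMPCre controls was 3.58 (SE 0.7) on the log2 scale for Itln1. For Gm9765, with 0 in every OMPCre library, a fitted value depends on the prior count.

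Ordered by mean CPM, Itln1 ran from AP-2εCre flox through AP-2εCre Het, OMPCre flox, OMPCre Het and OMPCre cKO to AP-2εCre cKO. Libraries of each neighbouring pair in this order overlapped, with the single exception of the step from AP-2εCre Het to OMPCre flox. Itln1 in AP-2εCre cKO, between 0.622 and 3.41 CPM, lay within the range of the OMPCre line, between 0.409 and 16.9 CPM.

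Itln1 did not differ detectably between OMPCre cKO, which lose Smad4 in mature neurons, and the 6 OMPCre controls. The choice of the genes had used the low level of both groups, though not the difference between them. The log2 difference was -0.69 (SE 1.1), with an adjusted p of 1 in edgeR's quasi-likelihood test and an exact two-sided permutation p of 0.64 over 84 splits, of which the smallest attainable was 0.012. OMPCre cKO exceeded controls in 8 of the 18 pairs of libraries. Single libraries decided its size, since it was -2.41, -0.32 and -0.23 without OMPCre cKO replicate 1, 2 or 3 and -0.02 without OMPCre flox replicate 2. With this SE a change of severalfold in either direction could have been missed. edgeR called 0 of 18623 genes in this comparison (0%), although 735 had an unadjusted p under 0.05 and DESeq2 called 46. Gm9765 could not be tested, as it was at 0 in both groups.

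The flox and Het controls did not differ detectably in either line. In the AP-2εCre line Het minus flox was -0.75 (SE 0.51) for Itln1 and -0.61 (SE 0.41) for Gm9765 on the log2 scale (edgeR, adjusted p = 1 for both, with 0.0487% of 18495 genes called). The exact two-sided permutation p was 0.3 for Itln1 and 0.4 for Gm9765, in a design of 3 against 3 that cannot go below 0.1. In the OMPCre line Itln1 gave -0.55 (SE 1.3; edgeR, adjusted p = 0.981, with 0.0752% of 18623 genes called, and exact permutation p = 0.9). The sign of that last difference rested on OMPCre flox replicate 2, without which it was 1.29 (SE 1.3). High expression in the AP-2εCre line was thus measured in the 3 Het and the 3 flox libraries compared here. A further library, titled Het but with the genotype label of a cKO, was in no comparison and had 4.22 CPM of Itln1 and 0 counts of Gm9765. If its title were right, a Het control would lie near the cKO libraries, below all 6 controls compared here, and for Gm9765 the cKO and control groups would overlap. For Itln1 its value lies above the 3.41 CPM of the highest cKO library.

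Within the series of letter-named libraries, Itln1 averaged 69.6 ± 39.4 CPM (SD, n = 4) in AP-2εCre controls and 3.07 ± 0.481 (n = 2) in cKO. Among line-named libraries the 2 controls lay at 49.9 and 94.6 CPM and the single cKO at 0.622 CPM. The direction was the same within each series, which was fixed in advance because the groups did not overlap. In the OMPCre line the series themselves stood apart, since the 3 line-named libraries had between 0.409 and 1.1 CPM of Itln1 and the 6 letter-named ones between 1.47 and 16.9 CPM. The same 3 libraries also stood apart in summed markers of other cells, with 207 to 265 CPM against 276 to 426 CPM for ciliated epithelium, 49.1 to 57.2 against 65.8 to 86.1 for immature neurons and 126 to 174 against 271 to 864 for blood vessels. The vessel gap rested on Pecam1, between 86.0 and 829 CPM over the OMPCre line. Cdh5, the other of the 2 vessel markers, stayed between 30.9 and 43.9 CPM. The part of ciliated cells, immature neurons and vessels in the level of Itln1 was not tested. Within the letter series, OMPCre cKO had 8.58 and 1.47 CPM against 3.45 to 16.9 CPM in 4 controls.

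The short Itln1 transcript separated the groups as Gm9765 did. Its estimated counts were 113.1, 871.8 and 507.4 in AP-2εCre flox and 531.9, 408.9 and 240.1 in AP-2εCre Het. It had 0 counts in all 3 AP-2εCre cKO libraries, where 702 counts remained on the long transcript. The AP-2εCre controls were at least 693-fold above cKO for the short transcript, taking a floor of 3 counts over the group, and 20.9-fold above for the long one (95% exact interval 19.4 to 22.6, counting error only). Libraries varied more than this interval shows. Per kilobase of the long transcript, without TMM scaling, cKO ranged from 0.611 to 3.11 CPM and the AP-2εCre controls from 29.0 to 88.6 CPM. In the OMPCre line the short transcript had counts in 1 of 9 libraries, flox replicate 3, with 5.625 of its 22 Itln1 counts. OMPCre flox replicate 2 carried 1207 counts of Itln1 and none of them were assigned to it. The share of Itln1 counts on the short transcript was 6.5% to 16.1% in the 6 AP-2εCre controls, and it did not differ detectably between Het and flox (exact permutation p = 0.7). Because salmon divides shared reads between the transcripts by an estimate, these counts are not numbers of junction reads.

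**Figure D2:**
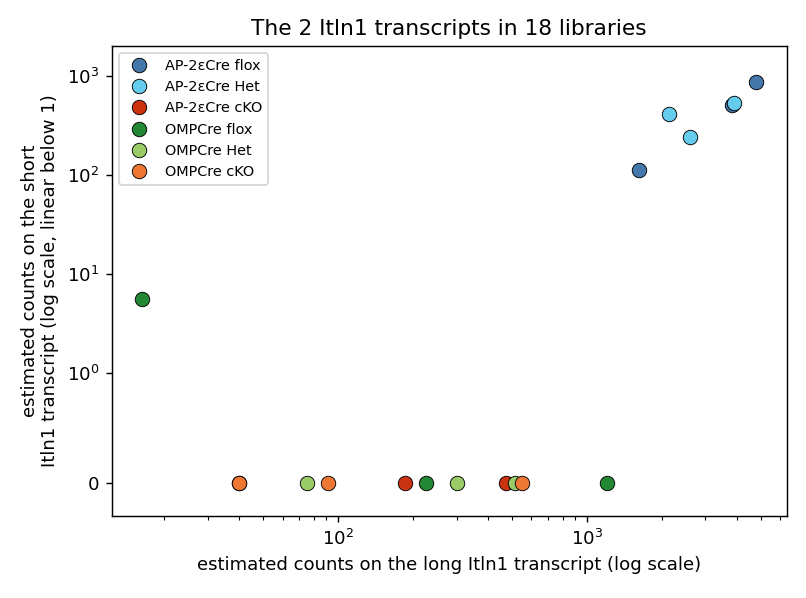
Estimated counts on the short Itln1 transcript (vertical, log scale, linear below 1) against the long one (horizontal, log scale), 1 point per library, coloured by group. The 6 AP-2εCre controls carry between 113.1 and 871.8 counts on the short transcript, and among the other 12 libraries 1 OMPCre flox library is above 0.

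The 2 genes kept a fairly steady ratio in the AP-2εCre controls. For every 100 counts of Itln1 the AP-2εCre controls had between 19.5 and 32.4 counts of Gm9765. Flox and Het libraries overlapped in this ratio (exact permutation p = 0.6). In AP-2εCre cKO replicates 1 and 3, where Gm9765 had 1 count each, the ratio was 2.5 and 0.538. The 476 Itln1 counts of AP-2εCre cKO replicate 2 and the 1207 of OMPCre flox replicate 2 were each accompanied by 0 counts of Gm9765. Over 18 libraries the Pearson r of log2(CPM + 1) between the 2 genes was 0.903 (Spearman rho 0.697). The libraries share depth and group, and the value is a description.

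The genes around the locus were followed as a reference. Of 72 genes annotated within 1 Mb, 65 had at least 10 counts over the 18 libraries and 58 could be tested in the AP-2εCre line. edgeR called 0 of the 58 between cKO and controls. At an unadjusted p under 0.05 there were 8 (13.8%, against 10.2% of all genes), and DESeq2 called 2, Casq1, a calcium-binding protein of muscle, and Cfap45, a protein of motile cilia, beside 307 of the 18495 genes tested by edgeR. Their edgeR differences were -0.87 and -0.53 on the log2 scale, and the 58 genes ranged from -0.87 to 0.86. None was called by edgeR or DESeq2 in any of the other 4 comparisons, in which 1 to 6 genes had an unadjusted p under 0.05. The share at that limit was 8.77% against 3.95% of all genes in OMPCre cKO, 10.7% against 6.57% between the lines, 3.45% against 5.47% in AP-2εCre Het against flox and 1.75% against 5.84% in OMPCre Het against flox.

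Most of the nearest neighbours had similar levels in these groups. Alyref2, whose product takes part in mRNA export and which lies 10.5 kb below Gm9765, had mean levels of 3.96 CPM in AP-2εCre controls, 3.43 in AP-2εCre cKO and 3.97 in OMPCre controls. F11r, an adhesion molecule of tight junctions, had 88.0, 81.9 and 88.1 CPM in these groups. Usf1, a transcription factor, had 27.3, 26.5 and 27.9 CPM, and Tstd1, a sulfurtransferase family member, 7.42, 8.87 and 7.93 CPM. Arhgap30 and Nectin4, the next on that side, differed by 0.50 and -0.25 between AP-2εCre cKO and controls on the log2 scale, with adjusted p of 0.431 and 0.738 in edgeR. On the other side the pseudogenes Gm37981 and Tma7-ps gave 0.40 and 0.86 (edgeR, adjusted p = 0.902 and 0.504). Between the controls of the lines Tma7-ps had 0.963 CPM in AP-2εCre and 2.79 CPM in OMPCre (-1.54, SE 0.56, adjusted p = 0.664 in edgeR).

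Immune receptors of the SLAM family fill the stretch above Itln1. The 9 measured members included Cd244a, 23.9 kb away, its ligand Cd48, and Ly9, Slamf7, Slamf1, Cd84, Slamf6, Slamf9 and Slamf8. edgeR and DESeq2 called 0 of the 9 in each of the 5 comparisons. In AP-2εCre cKO against controls 1 of the 9 had an unadjusted p under 0.05 (11.1%, against 10.2% of all genes), and their median log2 difference was 0.22 beside 0 over all genes. That gene was Slamf7, with 0.83 (edgeR, adjusted p = 0.398) and means of 4.06 CPM in cKO and 2.27 CPM in controls. Cd244a, the nearest, had 1.06 CPM in AP-2εCre cKO, 0.937 in AP-2εCre controls and 1.20 in OMPCre controls. Cd84, the most abundant by CPM, had 12.4, 11.5 and 9.96.

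**Figure D3:**
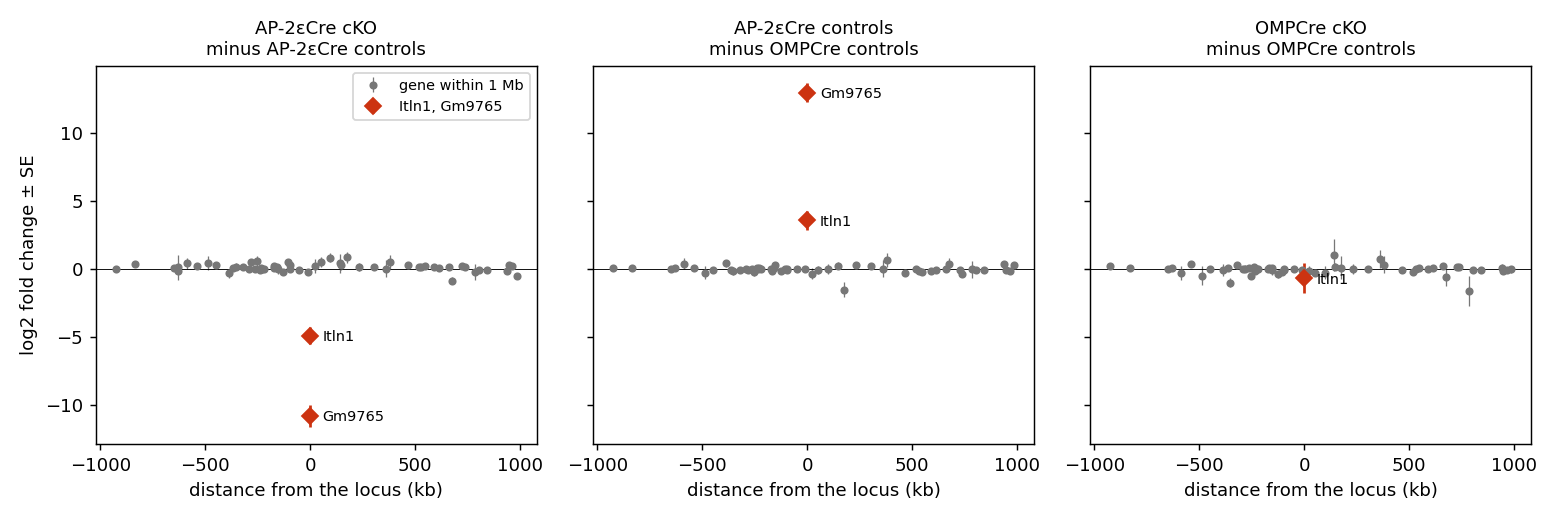
Log2 fold change with SE (edgeR) of each tested gene within 1 Mb against its distance from the locus in kb, in 3 comparisons. Itln1 and Gm9765 (red diamonds) stand away from their neighbours (grey) in the first 2 panels, whereas in OMPCre cKO minus controls Itln1 lies at -0.69 and Gm9765 was not tested.

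Groups that did not overlap were also counted along the chromosome, in windows set after values had been seen. Within 1 Mb, 5 of 58 neighbours (8.62%) had AP-2εCre cKO and control groups that did not overlap, beside 5.12% of all genes. They were Casq1 and Cfap45, lower in cKO, and Fcgr3, Slamf7 and Vangl2, higher in cKO. Within 5 Mb the count was 13 of 114 (11.4%), and between 5 and 15 Mb above the locus it was 10 of 72 (13.9%). It was 7 of 77 (9.09%) from 5 to 15 Mb below, 12 of 192 (6.25%) from 15 to 45 Mb below, 8 of 222 (3.6%) from 45 to 95 Mb below and 20 of 369 (5.42%) beyond. From 15 to 25 Mb above it was 2 of 50 (4%). For OMPCre cKO and controls, 6 of 114 genes within 5 Mb (5.26%) had groups that did not overlap, against 2.31% of 18623 genes. The share was 4.17% in both bins farther above and between 1.36% and 2.7% in those below. Between the controls of the 2 lines there were 0 of 56 within 1 Mb and 2 of 109 within 5 Mb (1.83%), against 0.491% of all genes. Shares were higher farther away, at 2.67% from 5 to 15 Mb below, 4.29% from 5 to 15 Mb above and 4.08% from 15 to 25 Mb above, and at most 0.476% in the other 3 bins. The AP-2εCre controls enter both the first and the last of these comparisons.

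**Figure D4:**
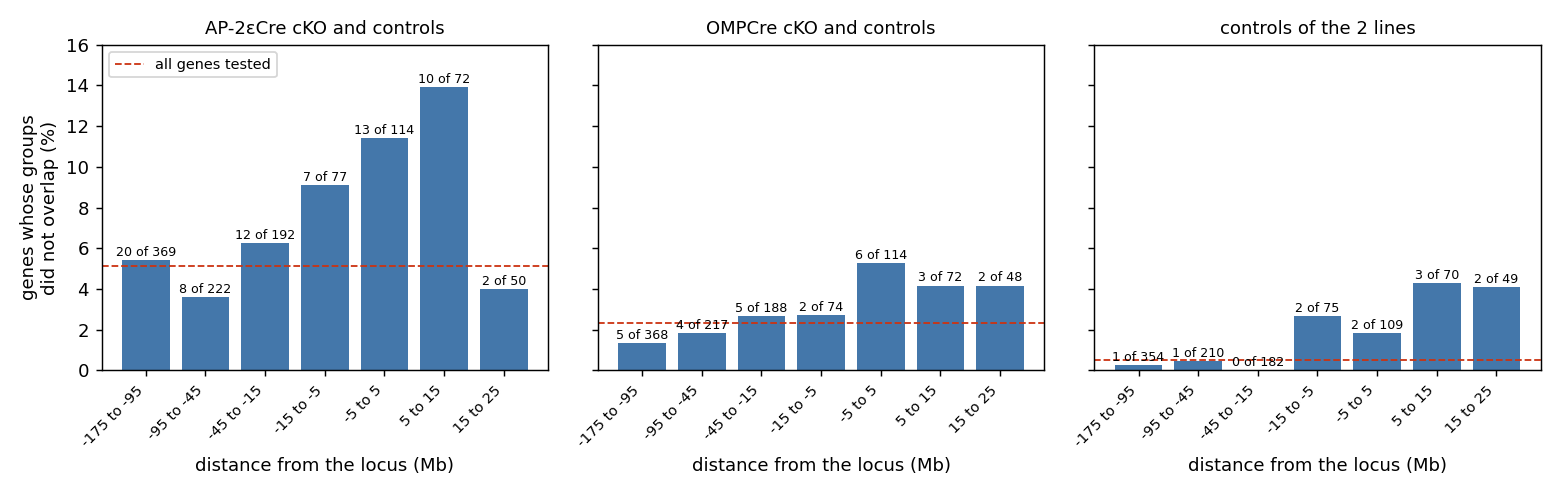
Percentage of genes on the same chromosome whose groups did not overlap, by distance from the locus in Mb, for AP-2εCre cKO and controls, OMPCre cKO and controls, and the controls of the 2 lines. Itln1 and Gm9765 are left out, counts stand above the bars, and the dashed line is the share over all genes tested (5.12%, 2.31% and 0.491%). In the first panel the bins within 15 Mb of the locus reach 9.09% to 13.9%, and of the other 4 bins those with 6.25% and 5.42% also lie above the line.

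Single transcripts were compared as counts per 1000000 of the library total, without TMM scaling. Of 269 transcripts of neighbouring genes within 1 Mb, 17 (6.32%) had AP-2εCre cKO and control groups that did not overlap, beside 2.96% of 88244 transcripts. All 17 were higher in cKO, as were 2239 of the 2613 among all transcripts. Of the 5 neighbouring genes without overlap, compared after TMM scaling, 3 were higher and 2 lower in cKO. The part of the missing scaling in the direction of the transcripts was not tested.

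Genes with a switch-like pattern were counted with limits that restate the contrast on which Gm9765 was chosen. Gm9765 meets them through that choice, and the counts are a description with no test. Of 35596 genes, 3 had at most 2 counts in each AP-2εCre cKO and at least 20 in each AP-2εCre control. These were Gm9765, Gm16589 and Gm8978. Gm16589, at chr8:4087658-4088575, had between 146 and 253 counts in the 6 AP-2εCre controls and 0, 2 and 0 in cKO. In the OMPCre line it had 6 counts in flox replicate 3 and 0 in the other 8 libraries. Gm8978, on chromosome 19, was absent from AP-2εCre cKO as well but reached 851 counts in the OMPCre line. Among 116072 transcripts, 20 met the same limits, and the Gm9765 transcript was the 1 that was also at or under 2 counts in all OMPCre libraries. The short Itln1 transcript was among the 20 as well, but had 5.625 counts in OMPCre flox replicate 3.

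Among 19464 genes passing the expression filter, the 5 with profiles most like Itln1 over the 18 libraries were Gm9765 (r = 0.903), Gm16589 (0.888), Nsun7 (0.876), Lmntd1 (0.869) and Sccpdh (0.858). For Gm9765 they were Gm16589 (0.978), Tnfsf18 (0.943), Itln1 (0.903), Cks1brt (0.903) and Gm32460 (0.888). Tnfsf18, which encodes a ligand of the tumour necrosis factor family, Gm32460 and Sccpdh also lie on chromosome 1, at chr1:161494655-161505290, chr1:191992861-191993092 and chr1:179668210-179687189. Gm16589, Nsun7, Lmntd1 and Cks1brt lie on other chromosomes. The share of chromosome 1 among the 19464 genes was not counted. Differences between the groups varied widely in size. Tnfsf18 lay between 0.234 and 0.689 CPM in AP-2εCre controls and at no more than 0.0311 in cKO, whereas Sccpdh was at 34.5 to 39.5 CPM in the AP-2εCre controls, 28.0 to 35.2 in cKO and 29.1 to 33.4 in the OMPCre line.

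Summed markers of secretory and of ciliated epithelium had lower values in AP-2εCre cKO than in its controls, although most single markers overlapped. The summed level of 5 secretory markers lay between 811 and 2650 CPM in AP-2εCre controls and between 235 and 650 CPM in AP-2εCre cKO. Of the 5, Scgb1a1 was at or near 0 throughout (at most 0.208 CPM), so the sum rested on Muc5ac, Muc5b, Agr2 and Spdef. The summed level of 3 ciliated markers, Foxj1, Tekt1 and Dnah5, lay between 357 and 476 CPM in those controls and 242 and 344 in cKO. Of the single markers only Muc5ac and Dnah5 did not overlap between the groups, beside 5.12% of all genes, whereas Muc5b, Agr2, Spdef, Foxj1 and Tekt1 did. The adjusted p of Muc5ac, Spdef, Agr2 and Muc5b in edgeR was 0.308, 0.317, 0.423 and 0.71. Neither sum overlapped, and the means of controls and cKO were 1410 and 484 CPM for the first and 394 and 284 CPM for the second, while those of Itln1 were 70.5 and 2.26 CPM. The secretory sum of the OMPCre line reached 1380 and 1610 CPM in flox replicates 1 and 2, within the range of the AP-2εCre controls, while Itln1 stood at 3.45 and 16.9 CPM and Gm9765 at 0. OMPCre cKO replicate 3 had a secretory sum of 1390 CPM with 0.728 CPM of Itln1. The ciliated sum was 415 and 426 CPM in the same libraries and lowest, at 207 CPM, in OMPCre flox replicate 3, where Itln1 was also lowest. The part of these cell types in the level of Itln1 was not tested.

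**Figure D5:**
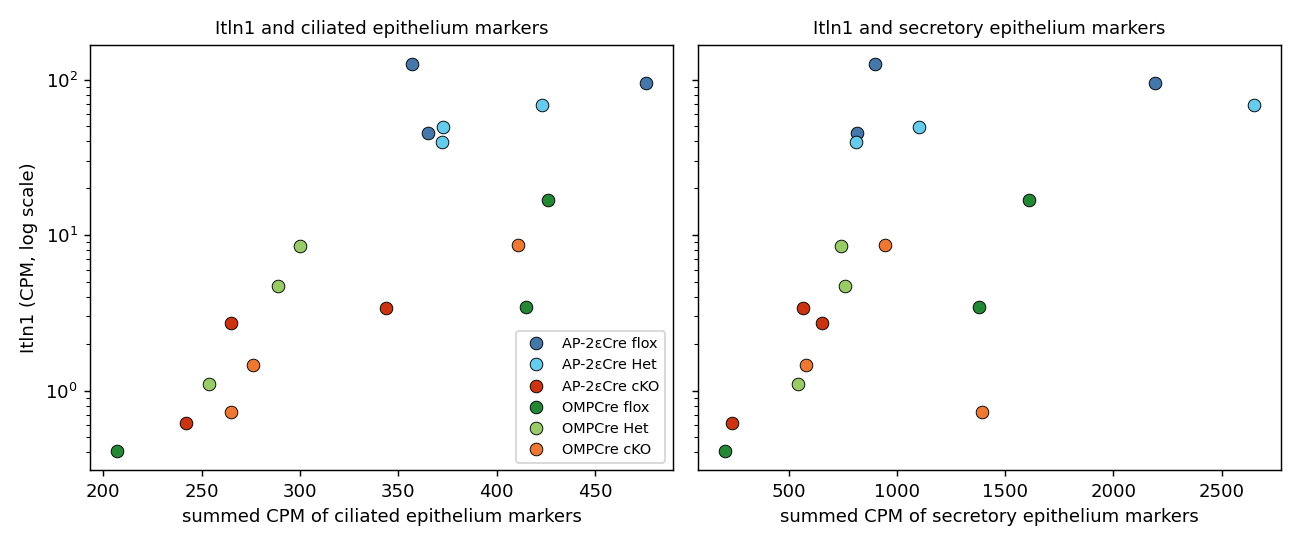
Itln1 in CPM (log scale) against the summed CPM of ciliated (left) and secretory (right) epithelium markers, 1 point per library, coloured by group. OMPCre libraries with marker sums as high as those of AP-2εCre controls have no more than 16.9 CPM of Itln1, against at least 39.4 CPM in AP-2εCre controls.

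Markers of other cells known to make intelectins were mixed. Of 3 Paneth cell markers Defa24 was at 0 in all libraries and Mmp7 reached no more than 0.0333 CPM. Lyz1, the third, was detected in every library and averaged 75.7 ± 110 CPM (SD, n = 3) in AP-2εCre cKO and 11.1 ± 7.68 CPM (n = 6) in AP-2εCre controls (log2 difference 2.76, SE 0.88; edgeR, adjusted p = 0.345). This mean rested on cKO replicate 3, since the summed Paneth markers of the other two cKO libraries, 6.95 and 18.1 CPM, lay within the range of the controls. Of the mesothelial markers Wt1 and Upk3b stayed at or under 0.251 CPM in every library. Msln, the other, was lower in AP-2εCre cKO (23.2 to 27.6 CPM) than in AP-2εCre controls (30.6 to 47.9 CPM), without overlap, beside 5.12% of all genes. It did not overlap in the OMPCre line either (28.5 to 34.4 CPM in cKO and 34.5 to 44.8 CPM in controls, beside 2.31% of all genes), where Itln1 groups overlapped. Tuft, mast and immune cell sums overlapped between cKO and controls of the AP-2εCre line.

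Genes of mucus production had lower fitted levels in AP-2εCre cKO, but none passed edgeR's test. Of the 20 genes of the goblet and mucus list 18 passed the filter on low counts and were tested. Of these, edgeR called 0, 6 had an unadjusted p under 0.05 (beside 10.2% of all genes) and DESeq2 called 4 (beside 307 of the 18495 genes tested by edgeR). All 18 had a negative log2 difference, with a median of -0.49 beside 0 over all genes. The 4 were Muc5ac, a gel-forming mucin (-2.62, SE 0.7), Tff1, a trefoil peptide (-1.92, SE 0.49), Muc16, a membrane mucin (-0.84, SE 0.23), and Spdef, the transcription factor of goblet cells (-0.75, SE 0.21). Their adjusted p in edgeR lay between 0.292 and 0.317. Medians between the control groups were also negative, at -0.22 in AP-2εCre Het against flox (7 of 18 higher) and -0.33 in OMPCre Het against flox (4 of 19 higher), where edgeR and DESeq2 called 0 and 1 gene in each had an unadjusted p under 0.05. In OMPCre cKO 0 of 19 were called by either tool, 0 had an unadjusted p under 0.05, and the median was -0.02. Between the controls of the lines the median of 18 genes was 0.18, with 0 called by either tool and 2 at an unadjusted p under 0.05.

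Inducers and companions of intelectin in type 2 responses had a median near 0. Of the 13 of 20 listed genes that passed the filter, edgeR and DESeq2 called 0 in AP-2εCre cKO, where 2 had an unadjusted p under 0.05, beside the same 10.2% of all genes, and the median was 0.02. Both of the 2 had lower fitted levels in cKO. They were Il33, an epithelial alarm cytokine (-0.42, SE 0.13), and Il13ra1, a receptor chain for IL-13 (-0.23, SE 0.096), with adjusted p of 0.335 and 0.45 in edgeR. Il33 lay at 38.1 to 48.6 CPM in cKO and 51.3 to 72.6 CPM in controls, which did not overlap, beside 5.12% of all genes. The receptor chain Il4ra, at 17.1 CPM in AP-2εCre controls, was at 18.6 in cKO, and Stat6, which carries the signal, at 64.4 and 62.3. Il13, the cytokine that induces intelectin in airways, stayed at or under a group mean of 0.0505 CPM, and Il4 at or under 0.0461. Of 18 tested mucosal defence genes edgeR and DESeq2 called 0 in the same comparison (2 at an unadjusted p under 0.05), with a median of 0.3. Of 16 SMAD target genes, edgeR and DESeq2 called 0 (1 at an unadjusted p under 0.05), with a median of 0.07. These counts too stand beside 10.2% of all genes. Id1, a classic BMP target, had 25.8 CPM in AP-2εCre controls and 24.0 in cKO.

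Genes whose structure is known to differ between mouse strains were looked up beside the locus. H2-Ea-ps had a group mean of at most 0.00516 CPM. Nnt is annotated under 2 identifiers, the first of which had means of 6.84 CPM in AP-2εCre controls, 3.66 in AP-2εCre cKO and 2.73 in OMPCre controls. Both identifiers overlapped between these groups. Glo1 had 51.2, 52.7 and 57.0 CPM. None of these was called by edgeR or DESeq2 in AP-2εCre cKO or between the controls of the 2 lines, and 0 and 1 of the 3 tested identifiers, respectively, had an unadjusted p under 0.05. Within the OMPCre line the first Nnt identifier differed between Het and flox controls by -2.39 (SE 0.57; edgeR, adjusted p = 0.505) and was called by DESeq2 (beside 156 of 18623 genes), and 2 of the 3 identifiers had an unadjusted p under 0.05 (beside 5.84% of all genes). No file gives the genotype of the intelectin locus. With 3 cKO animals per line and no strain label, loss of Smad4 and an inherited difference at the locus cannot be told apart in the AP-2εCre contrast.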

How the data were processed

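The authors prepared stranded polyA+ libraries from whole VNO RNA, sequenced single reads of 75 bases and quantified them with Salmon 0.14.0 against mouse transcripts (mm10, GRCm38). The methods name a CDS assembly, but the transcript lengths in the files equal those of full GENCODE vM21 transcripts. The deposited values are an estimated count and a TPM for each of 116248 transcripts. The TPM values rest on effective lengths, 72.167 bases for the 321 bases of the Gm9765 transcript, and were used only in an alternative and to set the 2 genes side by side.

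Estimated counts of 116072 transcripts matched to GENCODE vM21 were summed per gene and rounded. CPM of genes used TMM library sizes, whereas counts of single transcripts were divided by the library total without TMM scaling. edgeR 4.0.16 (filterByExpr, quasi-likelihood test) was the main test, with Benjamini-Hochberg adjustment over all genes tested and calls at adjusted p under 0.05. Each comparison had its own fit. Het and flox controls were pooled against cKO and between the lines, and Het against flox came from a fit of all groups of the line. The submitters' notes name DESeq2 1.22.2, and DESeq2 1.42.0 was run here as an alternative. Other alternatives were its size factors, a filter of 1 count, limma 3.58.1 on log2(TPM + 0.1), a replicate block, the library name series, 1 kind of control, and each library left out. Distances are to the span of the 2 genes. Sequences were read from the GENCODE transcripts, and alignment was local (Biopython 1.88). The fits were tested on simulated data. Replicates are labelled biological.

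The 2 genes, the gene lists (SLAM family, goblet and mucus, type 2 response, mucosal defence, SMAD targets, Cre-carrying genes, strain-dependent genes, cell type markers) and the tests were chosen with earlier results of these data known. Named neighbours were the 6 nearest on each side with at least 10 counts and any called by a tool. The 5 genes of highest Pearson r with each gene were named, and Gm8978 was named after its values were seen. 1 further AP-2εCre library, whose title and genotype label disagree, entered no comparison.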

Additional observations from a re-analysis of the deposited data

Results flagged for a closer look

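The library of the AP-2εCre line whose title says Het and whose genotype label is that of a cKO was in no comparison. It held 213 Itln1 counts (4.22 CPM) and 0 of Gm9765, so that, if its title were right, a Het control would lie near the level of the cKO libraries. Of the 213 counts, 65.69 were assigned to the short Itln1 transcript, a share of 30.8%, above the 6.5% to 16.1% of the 6 AP-2εCre controls. It is listed because this share, in a library outside the comparisons, exceeds that of the AP-2εCre controls. The counts themselves do not, as those controls had between 113.1 and 871.8. OMPCre flox replicate 3, with 22 Itln1 counts, had a share of 25.6%. Transcript shares are estimates, and the cause was not tested.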

How the results depend on the processing

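The sign of the Itln1 and Gm9765 differences held under every alternative run, except for Itln1 in OMPCre Het against flox. There it was 0.05 with limma on TPM and ranged from -1.26 to 1.29 with single libraries left out (1.29 without flox replicate 2). In OMPCre cKO Itln1 ranged from -2.41 to -0.02 with single libraries left out. For AP-2εCre cKO and between the lines the groups of both genes did not overlap, so their sign could not have turned. In AP-2εCre cKO, Gm9765 was -10.84 in the main fit, -9.65 with limma and -11.31 to -9.96 with single libraries left out. Between the lines Gm9765 was 12.97 in the main fit and 10.75 with limma. Both of the latter values depend on the constant added to 0 in the OMPCre libraries. The number of genes called depended much more on the setting. DESeq2 called 316 genes in AP-2εCre cKO, 46 in OMPCre cKO, 125 and 158 in Het against flox (AP-2εCre and OMPCre) and 131 between the lines, against 7, 0, 9, 14 and 17. Deviations of same-numbered libraries correlated from -0.308 to 0.192 in the AP-2εCre line. In the OMPCre line all 9 pairs were positive, from 0.0219 to 0.523 (mean 0.238, against -0.116 for other pairs), but not every pair exceeded 0.1, so the numbers were not read as pairs. With a replicate block the counts were 2, 0, 3, 7 and 18, and Itln1 in AP-2εCre cKO was -5.11. With library name series they were 2 in AP-2εCre cKO, 1 in OMPCre cKO and 5 in AP-2εCre Het. Flox controls alone gave 24 in AP-2εCre cKO and 4 between the lines, Het controls alone 11 in OMPCre cKO and 29 between the lines. The 6 libraries alone gave 4 and 8 for Het against flox, and a filter of 1 count 14 in the AP-2εCre line. With single libraries left out the counts ranged from 2 to 8, 0 to 2, 3 to 21, 6 to 19 and 13 to 25. No neighbour within 1 Mb was called under any setting apart from the 2 with DESeq2. The causes were not tested. Gm9765 could not be fitted in the OMPCre line.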
